A study of Mus musculus with 9 samples.

Results

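The 5 genes of the Ikaros family were followed in mouse T cell lymphoma driven by MYCN, a transcription factor of the MYC family, and in control CD4+ T cells. Members were the rows of the deposited count table whose symbol was Ikzf1, Ikzf2, Ikzf3, Ikzf4 or Ikzf5. All 5 were found among 46078 genes, each on 1 row, and all 5 were among the 15401 genes that passed the filter on low counts. RNA was sequenced from transcript 3′ ends in 6 lymphoma samples taken from the thymus and in 3 samples of CD4+ T cells taken from the spleen, all from C57BL/6J mice. Each lymphoma library is named by the number on its label (34, 53, 56, 70, 72 and 86), and the controls are CD4 1, 2 and 3. The labels give no age, no sex and no promoter or Cre line for the MYCN driver, and neither the independence of the tumours nor separate animals for the controls is stated. The p-values therefore measure only the spread between these samples. Tissue differs between the groups as well as disease, so thymus and lymphoma cannot be told apart here.

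Ikaros family proteins are zinc finger transcription factors of lymphoid cells. Fingers near the N terminus bind DNA and fingers at the C terminus join family members to each other, and the proteins recruit chromatin complexes such as NuRD, SIN3 and SWI/SNF. Ikaros (Ikzf1) is required for lymphocyte development and is a tumour suppressor in T cell leukaemia. Helios (Ikzf2) is known from regulatory T cells and developing thymocytes, Aiolos (Ikzf3) from mature B cells and some T helper cells, and Eos (Ikzf4) from regulatory T cells, where it works with Foxp3. Pegasus (Ikzf5) is the most distant member and is expressed in many tissues.

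In GENCODE M21 (GRCm38), Ikzf1 (ENSMUSG00000018654) lies at chr11:11685003-11772926 on the plus strand. The other members lie on the minus strand, Ikzf2 (ENSMUSG00000025997) at chr1:69531214-69687245, Ikzf3 (ENSMUSG00000018168) at chr11:98464902-98546031, Ikzf4 (ENSMUSG00000002578) at chr10:128630843-128645991 and Ikzf5 (ENSMUSG00000040167) at chr7:131388652-131410521. The coding sequence of the second DNA-binding finger is shown because it holds what the family shares. Each stretch spans 69 bases from the first cysteine codon of the finger, lies in exon 5 of a transcript of 8 exons, and has in capitals the bases that differ from Ikzf1. The stretches lie at chr11:11754024-11754092 (Ikzf1), chr1:69570575-69570643 (Ikzf2), chr11:98488934-98489002 (Ikzf3) and chr10:128640223-128640291 (Ikzf4), and all are read on the strand of their gene.
Ikzf1: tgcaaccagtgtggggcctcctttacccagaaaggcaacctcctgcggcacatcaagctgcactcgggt
Ikzf2: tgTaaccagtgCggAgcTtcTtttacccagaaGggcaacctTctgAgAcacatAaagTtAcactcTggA
Ikzf3: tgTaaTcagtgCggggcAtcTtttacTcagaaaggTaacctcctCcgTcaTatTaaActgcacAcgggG
Ikzf4: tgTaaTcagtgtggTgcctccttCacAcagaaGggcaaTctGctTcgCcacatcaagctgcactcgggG
Of the 69 bases, 55 in Ikzf2, 55 in Ikzf3 and 58 in Ikzf4 were those of Ikzf1. The encoded finger was the same as that of Ikzf1 at 23 of 23 residues for Ikzf2 and Ikzf4 and at 22 of 23 for Ikzf3. Ikzf5 has no such close counterpart, since its first fingers matched any Ikzf1 finger at no more than 9 of 23 residues. Alike as these fingers are, no window of 50 bases in the principal transcript of any member occurred in another member, so reads of that length that map cleanly can be assigned to 1 member.

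Overlap with other genes was large for 1 member. Of 4381 windows of 50 bases along the Ikzf5 transcript, 3487 (79.6%) also occurred in annotated transcripts of Pstk, a gene for a selenocysteine synthesis kinase that runs on the opposite strand. The strand setting of the counting is not given in the sources used here. Without strand, reads in that overlap cannot be told from Pstk. The annotated 3′ end of Ikzf5, at chr7:131388652, lies within Pstk (chr7:131371141-131394482), and RNA was sequenced from 3′ ends. The share of Ikzf5 reads concerned may thus be larger than the share of windows, and the level of Ikzf5 is uncertain. For the remaining members, the share of windows found in any other gene of the table was 1.05% for Ikzf2 (in the antisense gene Gm29114), 0.647% for Ikzf4, and 0 for Ikzf1 and Ikzf3. For Ikzf5, 750 windows (17.1%) were also found in Gm10356, a gene elsewhere in the genome. The antisense genes Gm11999 and Gm12000 lie across parts of Ikzf1 but share no such window with its principal transcript.

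Gene counts per library ranged from 11170704 to 15769679 in lymphoma and from 8099960 to 10808828 in CD4. Over all tested genes 46.6% changed between the groups at an edgeR adjusted p under 0.05 (24.7% higher and 21.9% lower in lymphoma), and 44.9% had no overlap between the groups. The log2 fold change had a median of 0.04 over these genes, which upper quartile scaling shifted to -0.06. Levels are given as counts per 1000000 of the TMM-scaled library (CPM). Cd3e, a chain of the T cell receptor complex, stood at 150 to 217 CPM in lymphoma and 138 to 192 CPM in CD4. Cd4 itself stood at 199 to 263 CPM in CD4 and at 6.04 to 71.9 CPM in lymphoma. Lymphomas 34, 70 and 72 had the same leading beta chain segment, Trbv12-1, with 66 of 84, 45 of 73 and 47 of 87 Trbv counts. Over all tested genes, Pearson's r of log2 CPM was 0.980 between lymphomas 70 and 72. Lymphoma 34 had 0.953 with lymphoma 70 and 0.949 with lymphoma 72, and also 0.953 with lymphoma 56. Lymphoma 53 stood apart, at 0.884 to 0.900 with the other lymphomas, whose own pairs had 0.939 to 0.980. It also had the fewest gene counts of the lymphomas, 11170704. Whether lymphomas 34, 70 and 72 share an origin was not tested, and each member's value is also given with these libraries averaged into 1.

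Of the 5 Ikaros family members 1 changed between the groups, Ikzf1, which was lower in lymphoma, where 21.9% of all tested genes were lower. That is 20% of the members against 46.6% of all tested genes, and the same 1 member had groups that did not overlap, against 44.9% of all tested genes. All 5 fitted changes were below 0, from -0.81 to -0.20 on the log2 scale, with a median of -0.48. The summed level of the family averaged 823 ± 63.1 CPM over the lymphomas (SD, n = 6; range 751 to 898 CPM). Over the controls it averaged 1162 ± 107 CPM (SD, n = 3; range 1084 to 1284 CPM). This sum is given as a description.

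Ikzf1 stood at 459, 453, 352, 521, 474 and 496 CPM in lymphomas 34, 53, 56, 70, 72 and 86, and at 568, 592 and 763 CPM in CD4 1, 2 and 3. Every lymphoma was lower than every CD4 library, with lymphoma 56 the lowest and CD4 3 the highest. The log2 fold change was -0.48 (SE 0.158, 95% interval -0.83 to -0.14, edgeR adjusted p = 0.0257), a level 1.40-fold lower in lymphoma. In bulk RNA, fewer cells of a type and less RNA per cell cannot be told apart. Of all members, Ikzf1 varied least among lymphomas: the SD of log2 CPM was 0.20, at percentile 10.4 of the tested genes. That percentile, like the one for Ikzf4 below, is taken over genes of every level and not over genes of like level. The call rests on single libraries, since the edgeR adjusted p was 0.169 without CD4 3, 0.0590 without lymphoma 34 and 0.0580 without lymphoma 56. It was also lost with no filter on low counts (edgeR adjusted p 0.0579), and the adjusted p ranged from 0.00495 to 0.169 over all alternatives. With lymphomas 34, 70 and 72 averaged it was 0.0497.

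Helios, Ikzf2, differed widely between lymphomas. Its level was 158, 219, 362, 119, 74.9 and 77.5 CPM in lymphomas 34, 53, 56, 70, 72 and 86, against 295, 267 and 275 CPM in CD4 1, 2 and 3. In 5 lymphomas it was below every CD4 library, whereas lymphoma 56 was above every CD4 library. The highest lymphoma held 4.83 times the level of the lowest, while the CD4 libraries stayed close together (SD 14.8 CPM, n = 3). The log2 fold change was -0.73 (SE 0.440, 95% interval -1.70 to 0.25) and did not pass the test (edgeR adjusted p = 0.203). Lymphoma 56 decided this outcome: without it Ikzf2 fell by 1.08 (edgeR adjusted p = 0.0187), while no other left-out library brought a call. With lymphomas 34, 70 and 72 averaged the value was -0.49.

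Ikzf3, which encodes Aiolos, stood at 63.8, 163, 104, 72.5, 74.0 and 123 CPM in lymphomas 34, 53, 56, 70, 72 and 86, and at 107, 131 and 132 CPM in CD4 1, 2 and 3. Lymphomas 34, 56, 70 and 72 were below all CD4 libraries, lymphoma 53 was above all of them and lymphoma 86 was within their range. The change of -0.30 (SE 0.277, 95% interval -0.91 to 0.30) did not pass (edgeR adjusted p = 0.397). With lymphomas 34, 70 and 72 averaged into 1 library the value was -0.08, and without lymphoma 53 it was -0.50 (edgeR adjusted p = 0.0619).

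The gene for Eos, Ikzf4, had the widest spread. It measured 17.7, 2.47, 4.29, 28.6, 32.9 and 5.34 CPM in lymphomas 34, 53, 56, 70, 72 and 86, and 30.7, 26.0 and 23.7 CPM in CD4 1, 2 and 3. Lymphomas 70 and 72 thus reached the CD4 level, lymphoma 34 was somewhat below it, and lymphomas 53, 56 and 86 were far below. The counts behind these values were 274, 27, 59, 467, 502 and 74 in lymphoma, so the low values are above the floor of 3 counts that a count of 0 allows. The highest lymphoma exceeded the lowest 13.3-fold, and the SD of log2 CPM of 1.54 was at percentile 94.6 of the tested genes, against an SD of 0.19 among CD4 libraries. The group comparison averages over this spread, at -0.81 (SE 0.716, 95% interval -2.40 to 0.78, edgeR adjusted p = 0.384). It was -1.30 with limma voom and -1.44 with lymphomas 34, 70 and 72 averaged, and passed the test in neither (limma adjusted p = 0.112 for the former).

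Pegasus, Ikzf5, was the most even member between the groups. Lymphomas 34, 53, 56, 70, 72 and 86 had 74.9, 57.2, 75.1, 93.0, 95.5 and 84.4 CPM and CD4 1, 2 and 3 had 83.8, 102 and 90.7 CPM. Lymphomas 70, 72 and 86 were within the CD4 range and the other lymphomas were below it. The log2 fold change was -0.20 (SE 0.181, edgeR adjusted p = 0.383), and its 95% interval of -0.60 to 0.19 leaves out a 2-fold change in either direction. With lymphomas 34, 70 and 72 averaged the value was -0.25. These values describe the reads counted for Ikzf5, and its true level is uncertain because of the overlap with Pstk. Pstk, the opposite-strand gene, ran the other way, with 30.8 to 40.6 CPM in lymphoma and 16.2 to 26.4 CPM in CD4 (log2 fold change 0.65, SE 0.204, edgeR adjusted p = 0.0214).

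**Figure D1:**
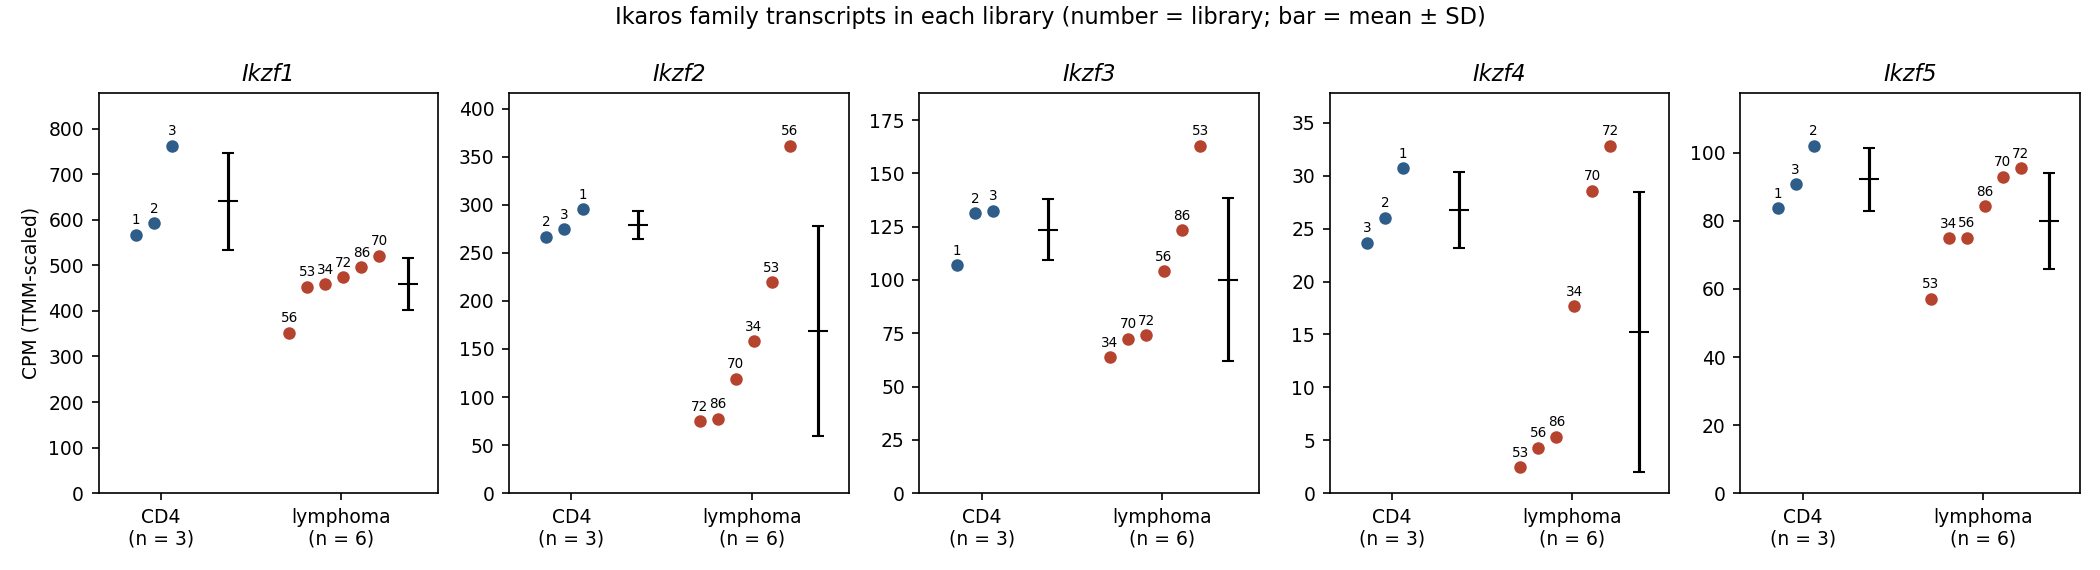
CPM of each Ikaros family gene in 3 CD4 (blue) and 6 lymphoma (red) libraries, 1 panel and 1 linear axis from 0 per gene; points are libraries with their label number, and bars are mean ± SD. Only the Ikzf1 groups do not overlap, and Ikzf4 in lymphoma spans 2.47 to 32.9 CPM.

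**Figure D2:**
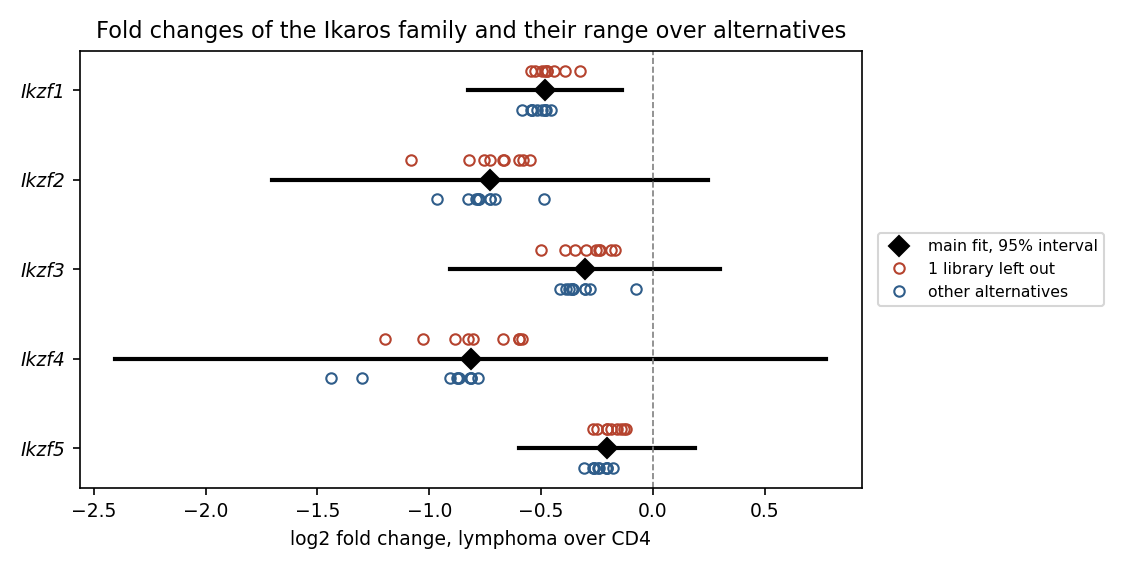
Log2 fold change (lymphoma over CD4) of each member: the black diamond and line are the edgeR estimate and its 95% interval, red circles are fits with 1 library left out and blue circles are the other alternatives. All circles are below 0, and the interval stays below 0 for Ikzf1 alone.

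The members ordered the lymphomas differently. Ikzf4 was highest in lymphomas 70, 72 and 34, in which Ikzf3 was lowest. Ikzf2 was lowest in lymphomas 72 and 86 and highest in 56, the library with the lowest Ikzf1. The library order of Ikzf4 was set beside T cell receptor transcripts, a choice made after its values were seen. Lymphomas 34, 70 and 72 held 84, 73 and 87 counts over all Trbv segments, which build the T cell receptor beta chain, while lymphomas 53, 56 and 86 held 9, 0 and 0. Trac, the constant region of the alpha chain, did not follow that order. It was 814, 955 and 927 CPM in lymphomas 34, 70 and 72, 322 and 234 CPM in lymphomas 56 and 86, and highest in lymphoma 53, at 986 CPM. Trdc, the constant region of the delta chain, reached 316 and 260 CPM in lymphomas 56 and 86, and had at most 9 counts in each of the other lymphomas. In CD4 1, 2 and 3 the Trbv counts were 112, 40 and 100. Trac was 472 to 704 CPM and Trdc 14.9 to 18.1 CPM in those controls. Trbv counts were thus low in every library, so few or none are not read as a lack of beta chain. Cd4 was 62.6, 48.6 and 71.9 CPM in lymphomas 34, 70 and 72, and 13.8, 6.04 and 9.02 CPM in lymphomas 53, 56 and 86. Lymphoma 53, with the lowest Ikzf4 and the highest Ikzf3, had Cd8a at 29.4 CPM, where no other lymphoma was above 1.53 CPM. With 6 lymphomas and no labelled subgroups, these are values side by side and no test was made of them.

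Genes with the most similar profiles were sought among 8825 other tested genes with an average log2 CPM of at least 3, by Pearson's r of log2 CPM, as a description. All profiles share the libraries' depth and scaling, and no p is given. The 3 nearest were picked for the highest r among 8825 genes over few libraries, so a high r follows from the choice. Over 9 libraries the nearest genes to Ikzf4 were Insr, the insulin receptor (r = 0.983), the centriole gene Cenpj (0.973) and C130089K02Rik (0.969). Over the 6 lymphomas they were Dapk1, a death-associated kinase (0.995), Susd3 (0.994) and Dcaf17 (0.992). Susd3 had 8.90, 11.5 and 11.3 CPM in lymphomas 34, 70 and 72 and 2.65, 3.20 and 3.75 CPM in lymphomas 53, 56 and 86. Dcaf17 was also highest in lymphomas 34, 70 and 72, but within a narrow range of 89.4 to 120 CPM over the 6 lymphomas.

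**Figure D3:**
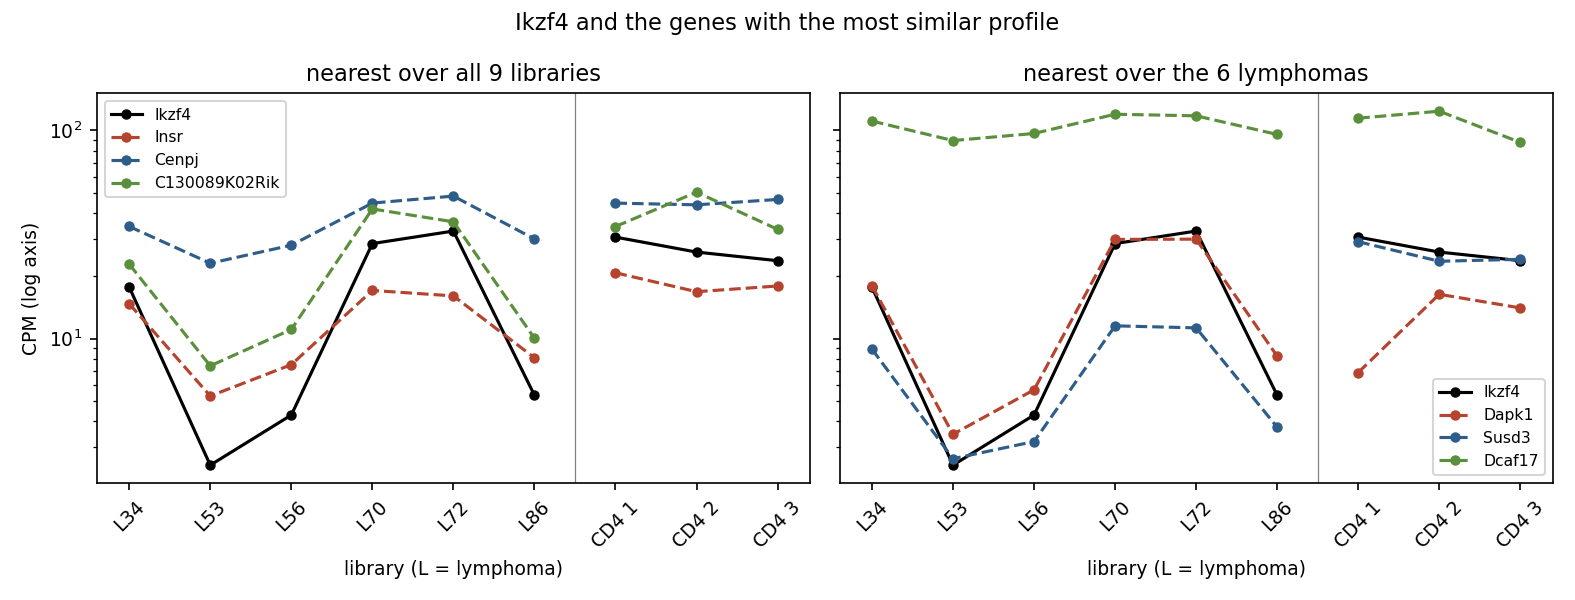
CPM (log axis) of Ikzf4 (black) and of the 3 genes nearest to it over all 9 libraries (left) or over the 6 lymphomas (right), by library. Ikzf4, Insr and Dapk1 are high in lymphomas 34, 70 and 72 and low in 53, 56 and 86, and in CD4 Ikzf4 lies at 23.7 to 30.7 CPM. Insr and Dapk1 were picked for a profile like that of Ikzf4.

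For Ikzf1 the nearest genes were Ankrd13c (r = 0.960), Relt (0.954) and Tab2 (0.953) over 9 libraries, and Parp14 (0.993), the thymocyte surface gene Cd24a (0.976) and Rab27a (0.966) within lymphoma. Cd24a rose by 2.23 (SE 0.269, edgeR adjusted p = 4.48e-05), opposite in direction to Ikzf1 between the groups. Ikzf2 was nearest to Acot9 (0.905), Golm1 (0.894) and Tmem2 (0.872) over 9 libraries, and to Tbca (0.979), Gm10275 (0.960) and Ptcd3 (0.949) within lymphoma. Ikzf3 was nearest to Map7d1 (0.965), Snapc1 (0.951) and Slc25a12 (0.947), and within lymphoma to Spcs1 (0.997), Dctpp1 (0.994) and Trim27 (0.993). Ikzf5 was nearest to Ccdc28a (0.963), Aftph (0.948) and Rbm48 (0.948), and within lymphoma to Pspc1 (0.998), Poli (0.997) and the cohesion gene Esco2 (0.996).

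Other cell types could carry family transcripts into the control samples, so their markers were measured beside the members. Of 16 regulatory T cell markers 15 were tested, and 14 were lower in lymphoma and 0 higher, where 21.9% of all tested genes were lower. Their summed level was 65.9 to 110 CPM in lymphoma and 619 to 854 CPM in CD4. A marker that passed the filter on low counts through its CD4 level alone had to differ, here and in the marker lists below. Foxp3, the defining factor of these cells, had 719, 218 and 299 counts in CD4 1, 2 and 3 (26.2 to 68.6 CPM) and at most 6 counts in any lymphoma. Its log2 fold change was -8.61 (SE 0.755, edgeR adjusted p = 5.94e-06), -10.04 without lymphoma 86 and -8.00 without CD4 1. Ctla4, an inhibitory receptor, had the steepest fall of that list, -9.30 (SE 0.551, edgeR adjusted p = 3.79e-07), and stood at -9.95 without lymphoma 86. Tigit had 0 counts in all 9 libraries. Whereas Foxp3 was close to 0, lymphomas 70 and 72, with 0 and 1 counts of it, held 28.6 and 32.9 CPM of Ikzf4, and lymphoma 56, with 0 counts, held 362 CPM of Ikzf2. Other genes of the list varied: Tnfrsf18 was highest in lymphomas 70 and 72 (32.6 and 31.5 CPM) and Izumo1r in lymphoma 56 (67.1 CPM). Capg and Nt5e were highest in lymphoma 34, and Tnfrsf4 in lymphoma 53. All these values were below every CD4 library. The part of regulatory T cells in the CD4 level of Ikzf2 and Ikzf4 was not tested.

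B cell markers were also abundant in the controls. All 17 were lower in lymphoma, where 21.9% of all tested genes were lower. The B cell list summed to 259 to 430 CPM in lymphoma and 2840 to 3506 CPM in CD4. Cd79a, a chain of the B cell receptor, had 68 to 110 counts in CD4 libraries and at most 6 in any lymphoma (log2 fold change -5.61, SE 0.748, edgeR adjusted p = 9.39e-05). Fcer2a, with 3 counts or fewer in every lymphoma, was at least 146-fold lower, against a floor of 3 counts per library. Ighm, the immunoglobulin mu chain, gave 242 to 404 CPM of the summed level in lymphoma. Lymphoma 53, with 163 CPM of Ikzf3, had 4 counts of Cd79a, 283 CPM of Ighm and 132 counts of Ighd. How much of Ikzf1 and Ikzf3 in CD4 came from B cells was not tested.

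Plasmacytoid dendritic cell markers were lower at 7 of 8 genes, where 21.9% of all tested genes were lower. The steepest fall was that of Siglech, the surface lectin of these cells (log2 fold change -8.56, SE 0.460, edgeR adjusted p = 2.05e-07). The list summed to 95.9 to 390 CPM in lymphoma and 783 to 837 CPM in CD4. The highest lymphoma sum, in lymphoma 53, held 269 CPM of Irf8, which is not particular to these cells. It also held 71.1 CPM of Tcf4, 22.7 CPM of Bst2, 16.4 CPM of Cox6a2 and 5.84 CPM of Runx2, and 1 count of Siglech. Irf8, Tcf4, Bst2, Cox6a2 and Runx2 were each higher in lymphoma 53 than in any other lymphoma. Myeloid markers were lower at 6 of 10 genes, beside the same 21.9% of all tested genes. They were led by the protease gene Ctss (-3.80, SE 0.336, edgeR adjusted p = 6.03e-06). Their sum ranged from 59.0 to 2191 CPM in lymphoma, against 942 to 1198 CPM in CD4. The highest sum, in lymphoma 56, came mostly from S100a8 (1035 CPM) and S100a9 (989 CPM). NK cell markers were lower at 5 of 8 genes and higher at 1, where 21.9% of all tested genes were lower and 24.7% higher. The higher gene was Gzma, a cytotoxic granule protease (2.93, SE 0.288, edgeR adjusted p = 1.03e-05), with 298 to 785 CPM in lymphoma, where the whole list summed to 316 to 803 CPM, against 163 to 182 CPM in CD4. Ncr1, the defining NK receptor, had 0 counts in every lymphoma and was at least 32.2-fold lower. Of 14 T cell identity genes 35.7% changed, against 46.6% of all tested genes. Of these 4 were lower and 1 higher, the latter being the kinase gene Zap70 (0.77, SE 0.173, edgeR adjusted p = 0.00330), and the steepest fall was that of Cd4 (-2.76, SE 0.717, edgeR adjusted p = 0.0111). The number of these genes that changed was 8 without lymphoma 53.

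**Figure D4:**
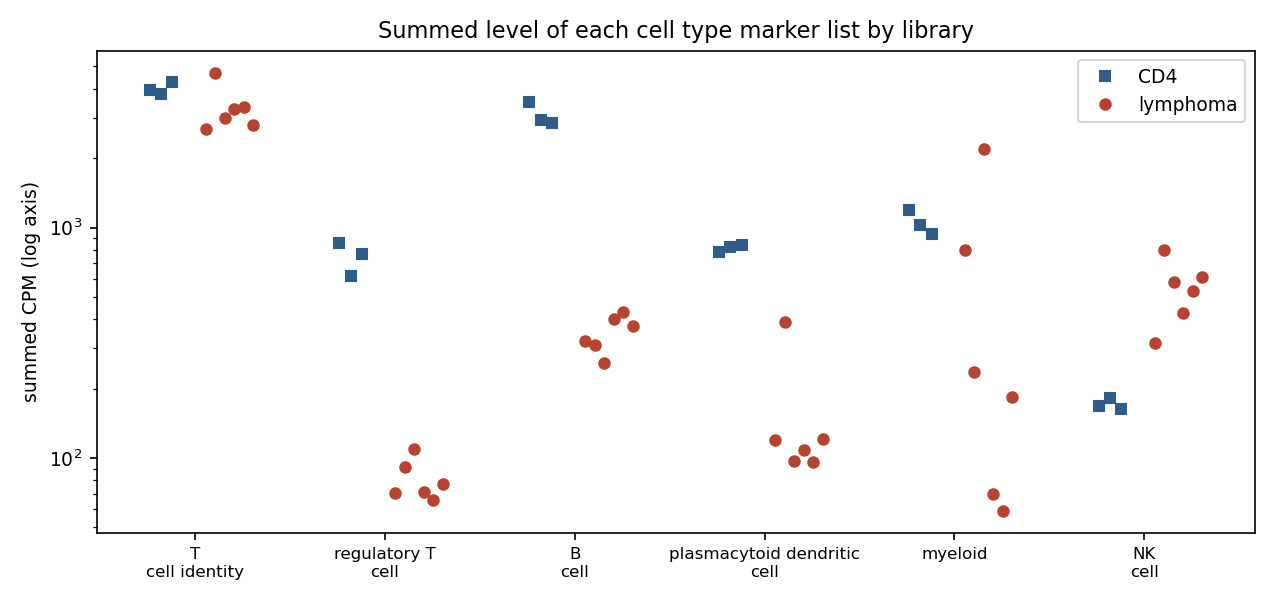
Summed CPM (log axis) of 6 cell type marker lists in CD4 (blue squares) and lymphoma (red circles), 1 point per library. Regulatory T cell, B cell and plasmacytoid dendritic cell lists separate the groups and are higher in CD4, at 619 to 854, 2840 to 3506 and 783 to 837 CPM. The NK cell list separates them in the other direction, at 163 to 182 CPM in CD4 and 316 to 803 CPM in lymphoma. Gzma alone gave 298 to 785 CPM in lymphoma, and 5 of the 8 NK cell genes were lower there. The myeloid list spans 59.0 to 2191 CPM in lymphoma.

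The chromatin partners of Ikaros were examined beside the family. Of 13 NuRD subunits 9 rose and 1 fell, with a median log2 fold change of 0.62 against 0.04 over all tested genes, of which 24.7% rose. NuRD is a remodelling and deacetylase complex that Ikaros proteins recruit. Chd4, its main ATPase and the best known Ikaros partner, averaged 559 ± 40.6 CPM over CD4 libraries (SD, n = 3). In lymphoma its mean was 860 ± 93.0 CPM (SD, n = 6), a rise (0.62, SE 0.143, edgeR adjusted p = 0.00378). Mta1 rose most, by 1.56 (SE 0.254, edgeR adjusted p = 0.000389), with 138 to 324 CPM in lymphoma and 65.9 to 97.6 CPM in CD4. Chd3, the alternative ATPase, was the 1 that fell (-1.08, SE 0.187, edgeR adjusted p = 0.000626), with 130 to 232 CPM against 339 to 423 CPM. Ikzf1 and Chd4 thus went in opposite directions, and every lymphoma was outside the CD4 range for both.

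SWI/SNF is a further remodelling complex that works with Ikaros. Of its 14 listed genes 13 were tested, 7 rose and 1 fell, and the median was 0.48. The share that changed was 61.5%, against 46.6% of all tested genes. Smarca4, which encodes the ATPase BRG1, rose by 0.74 (SE 0.157, edgeR adjusted p = 0.00225), from 224 to 267 CPM in CD4 to 357 to 516 CPM in lymphoma. The scaffold gene Smarcc1 rose most, by 2.30 (SE 0.160, edgeR adjusted p = 7.88e-07). Smarca2, for the alternative ATPase BRM, fell by 1.95 (SE 0.140, edgeR adjusted p = 9.94e-07), with 84.0 to 117 CPM in lymphoma and 367 to 430 CPM in CD4. The list's count was 5 without CD4 2. Of 7 SIN3 and CtBP corepressor genes 3 rose and 0 fell, with a median of 0.66; the 42.9% that changed is near the 46.6% of all tested genes. Sap30 led them (1.96, SE 0.384, edgeR adjusted p = 0.00139), from 15 to 17 counts in CD4 to 60 to 116 counts in lymphoma.

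Genes acting on the Ikaros proteins were examined next. Cereblon (Crbn) is the substrate receptor of the ubiquitin ligase through which lenalidomide-type drugs degrade human IKZF1 and IKZF3, and mouse cereblon does not respond to these drugs in the same way. Crbn stood at 44.4, 17.1, 46.9, 50.2, 43.4 and 48.7 CPM in lymphomas 34, 53, 56, 70, 72 and 86, and at 95.6, 80.2 and 113 CPM in CD4. All lymphomas were below all CD4 libraries, lymphoma 53 by the widest margin, and Crbn fell by 1.20 (SE 0.276, edgeR adjusted p = 0.00374). Its adaptor Ddb1 went the other way, from 124 to 140 CPM in CD4 to 366 to 532 CPM in lymphoma (1.71, SE 0.172, edgeR adjusted p = 1.24e-05). Of the 5 ligase genes 2 rose and 1 fell, with a median of 0.60, where 46.6% of all tested genes changed. Among 6 genes of the kinase CK2 and the phosphatase PP1, which set the phosphorylation of Ikaros, 2 rose and 0 fell, with a median of 0.38. That is 33.3% changed, where 46.6% of all tested genes changed and 24.7% rose. Csnk2b, the regulatory CK2 subunit, rose most (0.93, SE 0.258, edgeR adjusted p = 0.0110). The list's count was 0 without CD4 2, and 1 without CD4 1, without CD4 3 or without lymphoma 72.

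**Figure D5:**
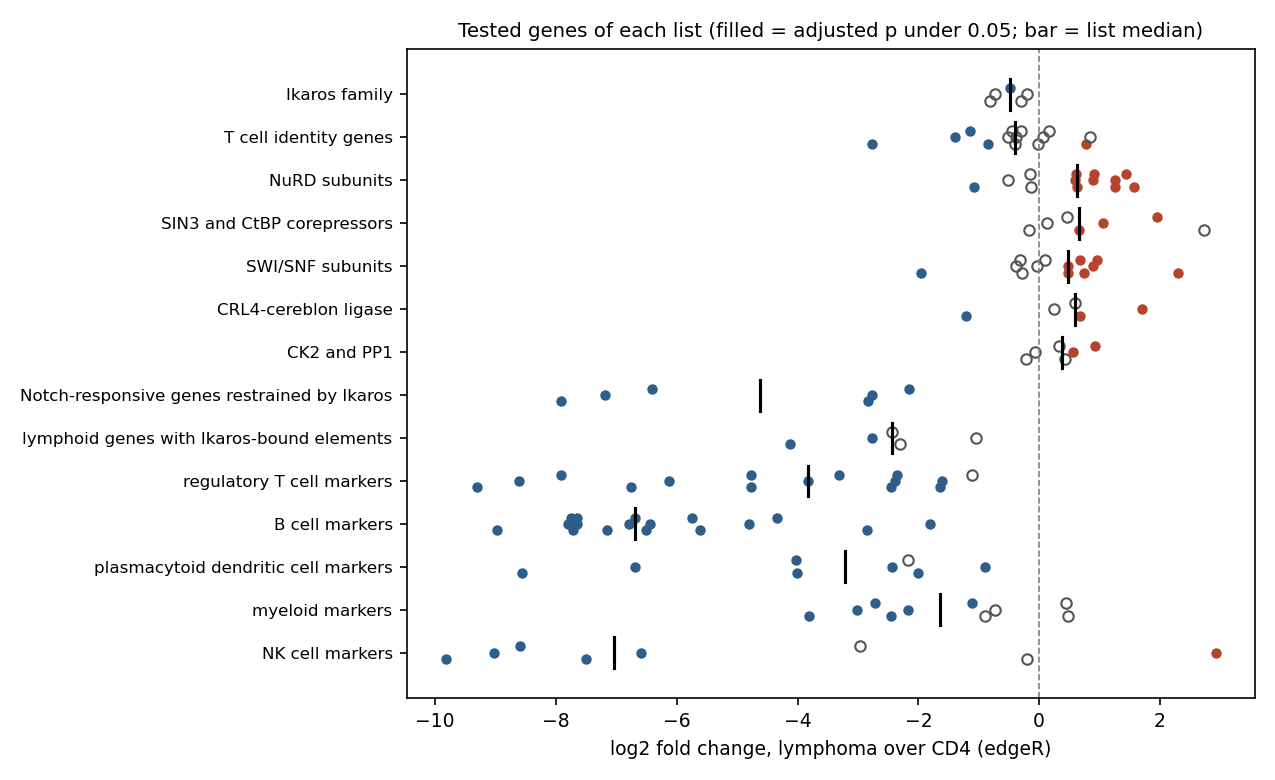
Log2 fold change (lymphoma over CD4) of every tested gene in each list; filled points have an edgeR adjusted p under 0.05 (red higher, blue lower in lymphoma), open points do not, and black bars are medians. Of the Ikaros family 1 point is filled, while the NuRD list has 9 red points and 1 blue.

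Genes that Ikaros is known to control were the last group. Of 8 Notch-responsive genes that Ikaros restrains in thymocytes 6 were tested, and all 6 fell, where 21.9% of all tested genes were lower. Their median log2 fold change was -4.62. Ptcra and Nrarp did not pass the filter, with at most 1 count in any library. Il2ra, the interleukin-2 receptor alpha chain and also a regulatory T cell marker, had the steepest fall (-7.92, SE 0.541, edgeR adjusted p = 7.33e-07), from 395 to 604 counts in CD4 to at most 6 in lymphoma. Dtx1, a Notch pathway ubiquitin ligase gene, fell by 6.41 (SE 0.382, edgeR adjusted p = 3.98e-07), with 152 to 201 CPM in CD4 and 1.24 to 5.02 CPM in lymphoma. A gene that passed the filter through its CD4 level alone had to differ, and the markers of B cells and regulatory T cells were higher in the same CD4 libraries; their part in these falls was not tested. Without CD4 3, 3 of these genes were called. Of 8 lymphoid genes with elements bound by Ikaros 5 were tested and 2 fell. That is 40% changed, near the 46.6% of all tested genes. Dntt, for the terminal transferase of thymocytes and B cell precursors, had the steeper fall (-4.12, SE 0.750, edgeR adjusted p = 0.000844), with 0 to 13 counts in lymphoma and 50 to 136 in CD4, and Cd4, described above, was the other. That count was 4 without lymphoma 53, the library with Cd8a. Igll1 had 0 counts in all libraries, and Rag1 and Rag2 had at most 2 counts in any.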

How the data were processed

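RNA from 6 lymphoma and 3 CD4 samples was sequenced from transcript 3′ ends and deposited by the authors as 1 table of raw read counts per gene and library, per the file headers. The submitters' processing notes name FastQC, HISAT2, SAMtools, HTSeq and the builds mm10 and GRCm38, with no version or order. Which annotation was used and whether strand was counted are not given in the sources used here. All columns matched a sample (0 did not). The 5 summary rows, which held 50.9 to 61.3% of reads in lymphoma and 65.0 to 72.2% in CD4, entered neither the library sizes nor any test.

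Genes were kept with filterByExpr (minimum count 10), scaled with TMM and tested with the quasi-likelihood functions of edgeR 4.0.16 (R 4.3.3, robust fit, no covariate, all 9 libraries), and p-values were adjusted by Benjamini-Hochberg over the 15401 tested genes, with 0.05 as the threshold. SE is the absolute log2 fold change over the square root of F, and 95% intervals use the fit's degrees of freedom. CPM is per 1000000 of the TMM-scaled library, log2 CPM adds a prior count of 2, and 3 counts is the floor. Floors cover counting error only. The fit was tested on simulated data.

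The 13 lists hold 132 genes, all found in the table. Where a symbol stood on 2 rows (4 genes), the row whose Ensembl ID carries that symbol in the reference's gene name table was taken. The members, lists and alternatives were chosen with earlier results of these data known, and lists are described by counts and medians with no test. Named genes are the members, the largest rise and fall of each list among genes past the threshold, the 3 genes nearest to each member over 9 and over 6 libraries, and Foxp3, Cd79a, Cd3e, Cd4, Crbn, Chd4 and Smarca4. Others named (Pstk, Trac, Trdc, Trbv segments, Cd8a, Dtx1, Tigit, Irf8, Klk1, S100a8, S100a9, Csf1r, Itgam, Adgre1, Ighm, Ighd and the genes at or near 0 counts) were chosen after their values were seen. So were Tcf4, Bst2, Cox6a2, Runx2, Ccr9, Lyz2, Fcer1g, Tyrobp, Cd14, Tnfrsf18, Izumo1r, Capg, Nt5e and Tnfrsf4. Gene positions and finger-coding sequences come from GENCODE M21 (GRCm38), using for each gene a principal protein-coding transcript. A finger was taken as a translated stretch of 23 residues with 2 cysteines and 2 histidines at the classical spacing. Alternatives were 3 other scalings, 2 other filters, DESeq2 1.42.0, limma voom (limma 3.58.1), a fit without robust, a threshold of 0.01, each library left out, and lymphomas 34, 70 and 72 averaged, since they share their leading T cell receptor segment. For the correlations, the other scalings and each left-out library were tried, chosen after seeing the data. A further stretch of sequence is not reported here.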

Additional observations from a re-analysis of the deposited data

Results flagged for a closer look

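Among the 6 lymphomas, 33 results (the 5 members, other named genes and marker sums) were examined for a lowest or highest library set apart from the rest by a gap that is too large a part of the whole range, by Dixon's criterion at 95%. This held for 8, and for none of the 5 Ikaros family members. Chance gives 1.65 only for normally distributed and independent results. Values at very few counts, and genes that are also part of a marker sum, do not meet this, so no excess is read from it. Crbn was 17.1 CPM in lymphoma 53 against 43.4 to 50.2 CPM in the other lymphomas. Lymphoma 53 also had the highest sum of T cell identity genes, 4700 CPM against 2690 to 3327 CPM, and of plasmacytoid dendritic cell markers, 390 CPM against 95.9 to 121 CPM. Irf8, a factor that other cell types also express, gave 269 CPM of that sum. Tcf4 (71.1 CPM), Bst2 (22.7 CPM), Cox6a2 (16.4 CPM) and Runx2 (5.84 CPM) were also higher in lymphoma 53 than in any other lymphoma. Ccr9 (5.02 CPM) was not, and Siglech had 1 count and Klk1 had 0 in that library. Myeloid markers reached 2191 CPM in lymphoma 56, the library with the highest Ikzf2 and the lowest Ikzf1, against 59.0 to 800 CPM. S100a8 (1035 CPM) and S100a9 (989 CPM), both abundant in neutrophils, made up most of that sum. In lymphoma 56 Csf1r (8.37 CPM), Itgam (8.51 CPM), Adgre1 (2.11 CPM), Ctss (27.9 CPM), Tyrobp (19.5 CPM) and Fcer1g (24.4 CPM) were below every CD4 library. Fcer1g was still the highest of the lymphomas there. Lyz2 (75.8 CPM) was the highest of the lymphomas too and within the CD4 range, as was Cd14 within that range at 8 counts. Lymphoma 86 had the highest Sap30, 8.37 CPM against 5.48 to 6.38 CPM, and its Foxp3 (0.433 CPM) and Ctla4 (0.361 CPM), like Fcer2a in lymphoma 56 (0.218 CPM), stood apart at very few counts. Whether any of these bears on the members was not tested.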

How the results depend on the processing

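Each of the 5 members kept a fold change below 0 in all 19 alternatives. Ikzf1 lost its call with no filter on low counts (-0.46, edgeR adjusted p 0.0579) and at a threshold of 0.01 (-0.48, unchanged in value), and 0 members were then called. With 1 library left out, Ikzf1 ranged from -0.55 to -0.33 and Ikzf2 from -1.08 to -0.55, and 0 to 1 members were called. Without lymphoma 56 the called member was Ikzf2 in place of Ikzf1. The cause was not tested. Ikzf3 (-0.50 to -0.08), Ikzf4 (-1.44 to -0.58) and Ikzf5 (-0.31 to -0.12) were not called in any alternative. Genes called over the whole table ranged from 4915 (threshold 0.01) to 8137 (without lymphoma 53). The median over all tested genes was 0.20 with no filter. With at least 10 counts in every library, calls fell because low genes left the test, to 2 Notch-responsive, 1 lymphoid, 8 regulatory T cell, 4 B cell, 4 plasmacytoid dendritic and 1 NK cell genes. At a threshold of 0.01 the counts were 5 for SWI/SNF, 0 for CK2 and PP1, 3 for the Notch-responsive and 1 for the lymphoid list. No named list gene reversed its direction. Csnk2b lost its call without CD4 2 (edgeR adjusted p 0.0596). Leaving out lymphoma 86 moved Foxp3 to -10.04 and Ctla4 to -9.95, and leaving out CD4 1 moved Foxp3 to -8.00. No batch is given in the labels and no replicate numbers are shared between groups. Of the correlations, 3 moved by over 0.1: Ikzf2 with Tbca (0.850 with library size alone), Ikzf5 with Rbm48 (0.846 without lymphoma 53) and Ikzf1 with Rab27a (0.819 without lymphoma 56). All these pairs had been picked for a high r in the same libraries, so their stability is partly built in. With 3 CD4 libraries, the 95% intervals of Ikzf2, Ikzf3, Ikzf4 and Ikzf5 span both directions.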
